A study of Mus musculus with 10 samples.

Results

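Of the 23086 gene symbols in the deposited table, 55 are protocadherins, taken by name with no condition on their level. They comprise 2 genes of the alpha cluster, 21 of the beta cluster, 22 of the gamma cluster and 10 non-clustered genes. The table holds RNA levels of mouse tumours grown from BBN963, a urothelial (bladder) carcinoma line, with 5 tumours labelled ATM-KO and 5 labelled ATM-WT. All were harvested at a common tumour size, and part of each was frozen for RNA sequencing. The kinase ATM starts the cellular response to broken DNA. The lesion behind the knockout, the number of clones and the animal each tumour came from are not in the labels. The p-values below therefore measure only the spread between these samples.

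Protocadherins are cell-surface adhesion proteins of the cadherin superfamily, best known for giving neurons a surface identity and for steering axons, dendrites and synapses. The alpha, beta and gamma clusters lie next to each other, on chromosome 18 in the mouse. In the alpha and gamma clusters each variable first exon has its own promoter and is spliced to constant exons that all members of the cluster share. Beta genes have a single coding exon and no constant exon. CTCF and cohesin help to choose among the clustered promoters, and DNA methylation and the chromatin protein SMCHD1 help to keep the others silent. Non-clustered protocadherins lie outside the clusters and have their own promoters, and several of them are active outside the nervous system. Of the 10 in the table, 2, Pcdh1 and Pcdh12, also lie on chromosome 18, beyond the gamma cluster, and the others on other chromosomes.

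Values are normalized counts, a signal that the authors scaled between libraries and that is not corrected for gene length. Fold changes compare ATM-KO with ATM-WT after taking log2(value + 1), so that those of low genes come out too small, and carry ± SE from limma. A gene was tested if its mean over the 10 libraries reached 10, and called if its p-value, adjusted by Benjamini-Hochberg over all 16517 genes tested, was under 0.05. The libraries summed to 20.2 M to 22.3 M normalized counts. Judged roughly from the spacing of low values, ATM-WT library A2 had 8.82 M reads and the other libraries 20.6 M to 28.3 M. ATM-WT libraries A2 and A4 stand apart, with 4824 and 4266 genes listed at 0, against 2403 to 3602 in the ATM-KO libraries and 2225 to 2527 in the other ATM-WT libraries. Of the 55 protocadherins, A2 listed 11 at 0 and A4 listed 6, against 1 to 6 in the ATM-KO libraries. Atm RNA was 659, 409.9, 366, 529.5 and 312 in ATM-KO libraries, against 433, 768, 311, 360.4 and 554 in ATM-WT libraries. It did not separate the groups, at 455 ± 139 in ATM-KO and 485 ± 183 in ATM-WT (SD, n = 5 each, exact two-sided permutation p = 0.82), so it does not check the labels. Basal urothelial markers summed to 429.5 to 1157 in ATM-KO and 32659 to 195514 in ATM-WT, luminal ones to 1297 to 2304 in ATM-KO and 11647 to 25389 in ATM-WT, and Upk3a, a defining urothelial gene, was listed at 0 in all 5 ATM-KO libraries. Krt18, a keratin gene of simple and luminal epithelium, made up most of the ATM-KO luminal sum, at 1259 to 2197 in ATM-KO and 3167 to 6722 in ATM-WT.

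Most beta cluster genes were lower in the ATM-KO tumours, few gamma cluster genes passed the test, and the non-clustered genes went both ways. Among the 44 protocadherins that passed the filter on low values, 3 were called higher and 16 lower, where 22.1% of all genes tested were called higher and 24.3% lower, 46.4% in either direction. The median log2 fold change of these 44 genes was -0.79, against 0.0047 for all genes tested. The groups were fully separate in 16 of the 44, against 35.2% of all genes tested. The other 11 protocadherins were too low to test. After quantile normalization, which raised the median of all genes to 0.15, 3 were called higher and 13 lower, while the split of all genes turned from 3649 higher and 4017 lower to 4514 higher and 3319 lower.

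The 2 alpha genes in the table were near silent in both groups. The level of the alpha cluster as a whole cannot be read from these genes. Pcdha4 held 5.11 normalized counts in ATM-KO library A11 and 0 in the other ATM-KO libraries, against 9.82 in ATM-WT library A2, 23.2 in A4 and 0 in the rest. Pcdha9 had 12.4 in ATM-KO library A15 and 10.5 in ATM-WT library A1, and 0 elsewhere. No alpha gene was tested.

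The beta cluster showed the broadest difference. Summed over its 21 genes, it gave 705, 727, 933, 779 and 885 normalized counts in ATM-KO libraries A11 to A15, against 2497, 2076, 2437, 2099 and 1653 in ATM-WT libraries A1 to A5. The groups lie well apart, and A2 and A4, sparse in low genes, sit in the middle of the ATM-WT range. The means were 806 ± 99.4 in ATM-KO and 2152 ± 338 in ATM-WT (SD, n = 5 each), a ratio of 0.374. All 21 beta genes had a lower mean in ATM-KO, as did 20 of the 22 gamma genes. Of the 17 that could be tested, all had negative estimates and 12 were called lower, 70.6% of them against 24.3% of all genes. The groups did not overlap in these 12 of the 17, against 35.2% of all genes tested. The median log2 fold change of the 17 was -1.40. After quantile normalization 9 were called lower, where 3319 of all 16517 genes tested were. Across alternatives, all genes called lower numbered 3319 to 4219. Without ATM-WT libraries A2 and A4 the count of beta genes called lower was 13, with Pcdhb21 added at -0.97 (limma adjusted p = 0.038, from 0.038 to 0.89 across alternatives).

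**Figure D1:**
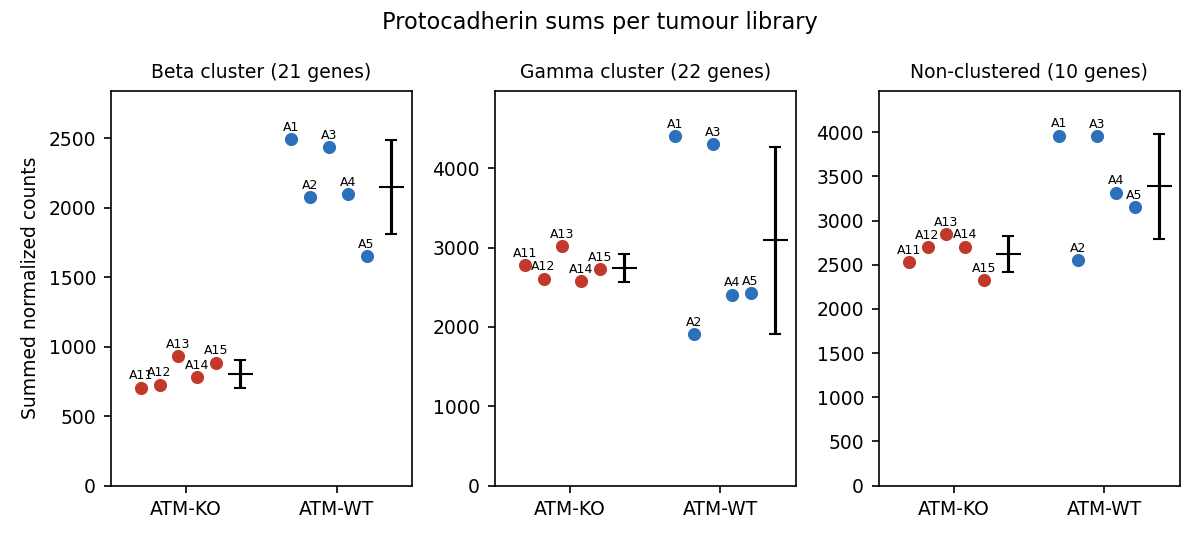
Summed normalized counts of the beta, gamma and non-clustered protocadherins in each library, labelled by its number, with the mean and SD of the 5 libraries of a group beside the points. Beta sums are 705 to 933 in ATM-KO and 1653 to 2497 in ATM-WT, while the gamma and non-clustered sums overlap.

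Pcdhb9 was among the beta genes that fell most. Its level was 26.6, 9.24, 35.1, 15.2 and 24.0 normalized counts in ATM-KO, against 139.7, 238, 155, 241 and 133 in ATM-WT, in the same order of libraries. Every ATM-KO library was below every ATM-WT library, with a log2 fold change of -3.07 ± 0.37 (limma adjusted p = 3.02e-05). Pcdhb11 and Pcdhb12, a little further along, were low genes that also fell. Pcdhb12 gave 9.20, 0, 6.10, 11.6 and 6.22 in ATM-KO, against 40.4, 63.9, 19.9, 45.6 and 64.0 in ATM-WT (-2.93 ± 0.68, limma adjusted p = 0.0034). Pcdhb11 gave 0.763 to 8.04 in ATM-KO and 9.66 to 44.2 in ATM-WT (-2.54 ± 0.61).

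Further along the cluster, from Pcdhb14 to Pcdhb20, each of the 7 genes fell. Pcdhb14 had 31.7, 30.5, 32.8, 27.7 and 20.4 in ATM-KO, against 169, 83.4, 209, 129 and 58.1 in ATM-WT (-2.02 ± 0.36, limma adjusted p = 6.09e-04). Its ATM-KO values are close together and its ATM-WT values spread over several fold. Pcdhb15 averaged 10.4 ± 2.00 in ATM-KO and 45.3 ± 15.2 in ATM-WT (-1.97 ± 0.37). Pcdhb16 had 68.5, 78.5, 128.9, 75.9 and 95.8 in ATM-KO, against 380.5, 349, 359.9, 237 and 172 in ATM-WT (-1.71 ± 0.27, limma adjusted p = 2.08e-04). The other 4 of these genes, Pcdhb17 to Pcdhb20, had log2 fold changes from -1.44 to -1.03, and further called genes were Pcdhb7 (-1.63 ± 0.37) and Pcdhb22 (-1.11 ± 0.29).

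The beta gene with the highest level per length kept that place in both groups. Divided by the length of its annotated exons, Pcdhb17 averaged 50.7 normalized counts per kb in ATM-KO and 106 in ATM-WT. In ATM-KO, Pcdhb20 (18.3 per kb), Pcdhb16 (17.1) and Pcdhb5 (15.7) followed, and in ATM-WT Pcdhb9 (59.4), Pcdhb16 (57.4) and Pcdhb20 (49.1). Pcdhb9 stood at 7.21 per kb in ATM-KO, and the order of the group means within the cluster was not the same in both. Exon lengths come from GENCODE M21, which may differ from the annotation the authors used.

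Another 5 tested beta genes did not pass: Pcdhb3, Pcdhb4, Pcdhb5, Pcdhb10 and Pcdhb21. Pcdhb5 had 54.2, 46.2, 84.6, 37.5 and 54.1 in ATM-KO, against 69.4, 41.7, 81.5, 97.0 and 48.2 in ATM-WT, and the groups overlap over most of their range. Its log2 fold change was -0.27, with a 95% interval from -0.97 to 0.44, which leaves out a fall as large as that of Pcdhb9. Pcdhb4 had an estimate of -1.36 ± 0.64 and Pcdhb3 a 95% interval from -2.11 to 0.02, with ATM-WT library A4 the highest at 67.2 in each. Without ATM-WT library A2 both were called lower, Pcdhb4 at -1.78 (limma adjusted p = 0.022, from 0.022 to 0.39 across alternatives) and Pcdhb3 at -1.26 (limma adjusted p = 0.049, from 0.045 to 0.53). The remaining 4, Pcdhb2, Pcdhb6, Pcdhb8 and Pcdhb13, were too low to test, with means of 2.62 to 3.79 in ATM-KO and 6.67 to 12.9 in ATM-WT. Beta genes resemble each other in sequence, so reads shared between close copies make single-gene values uncertain.

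**Figure D2:**
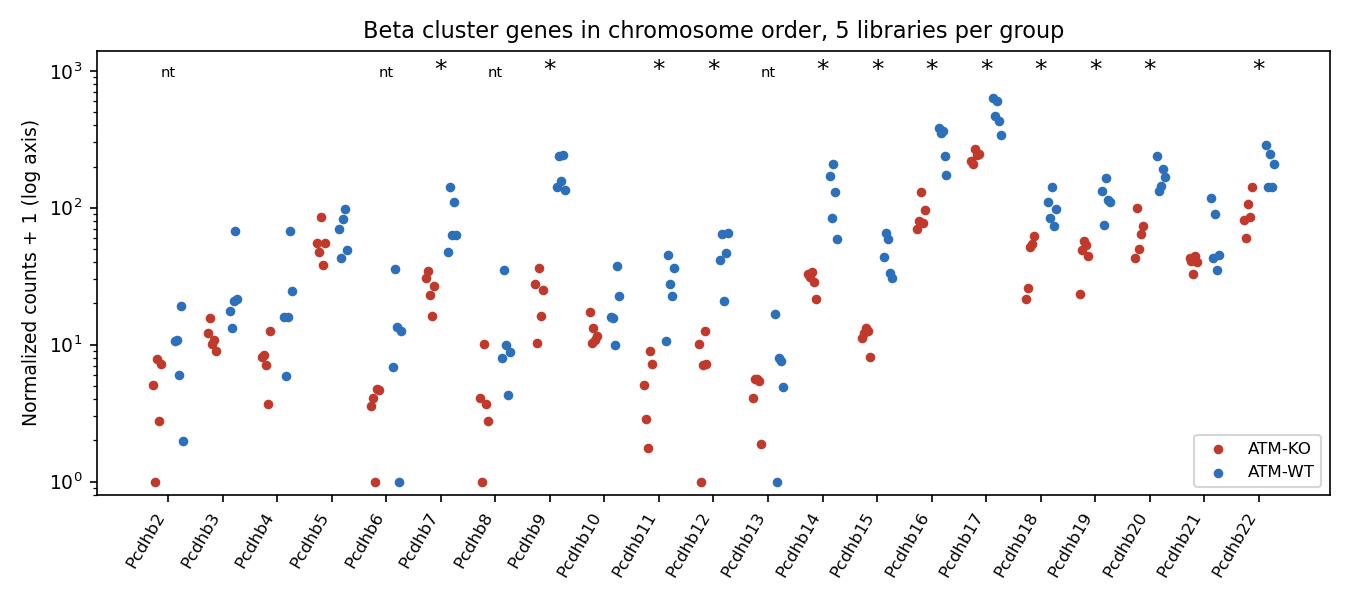
Normalized counts plus 1 of each beta gene in each library, on a log axis, in the order of the genes along the chromosome. Stars mark the 12 genes called lower in ATM-KO and nt marks the 4 genes too low to test. The groups of Pcdhb5 overlap, and those of the 12 starred genes do not.

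Fibroblast markers moved the same way as the beta sum. Their sum was 37139 to 108751 in ATM-KO and 159518 to 577877 in ATM-WT. Of 8 members, 7 were called lower, against 24.3% of all genes tested. All 5 tested basal markers and all 6 tested luminal markers were called lower in ATM-KO as well. Endothelial markers summed to 1621 to 3171 in ATM-KO and 2051 to 3977 in ATM-WT, with 1 of 6 called lower, against the same 24.3%. Macrophage markers summed to 11346 to 15362 in ATM-KO and 4575 to 15438 in ATM-WT. Of 4 macrophage markers, 1 was called higher, against 22.1% of all genes tested. The part of these markers in the protocadherin levels was not tested. In bulk tumour RNA, fewer cells of a type and less RNA per cell cannot be told apart.

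The summed gamma cluster overlapped between the groups. Its 22 genes summed to 2779, 2609, 3017, 2575 and 2725 normalized counts in ATM-KO, against 4401, 1911, 4305, 2407 and 2421 in ATM-WT. The ATM-KO libraries lie within the ATM-WT range, which is wide because A1 and A3 are high. Most single gamma genes leaned lower, with a lower mean in ATM-KO for 20 of the 22 and negative estimates for 15 of the 19 tested. Of these 19, 1 was called higher and 1 lower, 5.26% of them lower, against 22.1% of all genes higher and 24.3% lower. In 0 of the 19 were the groups apart, against 35.2% of all genes tested. Without A2 and A4 the higher call, Pcdhgc3, was lost and 4 genes were called lower, Pcdhgb1, Pcdhgc4, Pcdhgc5 and Pcdhga12. Gamma genes varied much between ATM-WT libraries, with a median SD of 0.78 in ATM-KO and 1.43 in ATM-WT on the log2 scale over the 19 genes. A2, with few reads, listed 6 of the 22 gamma genes at 0, and its part in this spread was not tested. Reads from the constant exons could be divided among gamma genes in more than one way, so every value of a single gamma gene is uncertain.

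C-type gamma genes, which in neurons are expressed more uniformly than the A and B types, carried most of the gamma signal. Pcdhgc3 had 1479, 1129, 1341, 1221 and 1042 normalized counts in ATM-KO, against 1464, 290.3, 1099, 404.7 and 432 in ATM-WT. ATM-WT libraries A1 and A3 reach the ATM-KO values and the other 3 lie far below. It was called higher at 1.02 ± 0.38 (limma adjusted p = 0.041), but the call was lost in 8 of the 10 fits that left out 1 library, which were those without A2, A4, A5 or any ATM-KO library. The value was 0.96 to 1.08 without each ATM-KO library, 0.76 without A2, 0.88 without A4 and 0.90 without A5. Without both A2 and A4 the value was 0.48 (limma adjusted p = 0.23, range over its alternatives 0.0036 to 0.23).

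Pcdhgc4, needed for the survival of neurons in mice, leaned the other way. It had 759, 1102, 1205, 876 and 1302 in ATM-KO, against 1380.0, 1145, 2218, 1206 and 1518 in ATM-WT, a difference of -0.50 ± 0.19 that missed the threshold (limma adjusted p = 0.053). It passed without A2, A4 or ATM-KO library A15 alone, and without both A2 and A4 at -0.70 (limma adjusted p = 0.014, range over its alternatives 0.014 to 0.13). As a share of the summed gamma counts, Pcdhgc3 made up 38.3% to 53.2% in ATM-KO and 15.2% to 33.3% in ATM-WT, with no overlap. Pcdhgc4 made up 27.3% to 47.8% in ATM-KO and 31.4% to 62.7% in ATM-WT. Pcdhgc5 was a minor part, at 63.1 ± 18.3 normalized counts in ATM-KO and 104 ± 74.9 in ATM-WT (-0.39 ± 0.51, limma adjusted p = 0.56). Without A2 and A4 Pcdhgc5 was called lower, at -1.21 (limma adjusted p = 0.014, from 0.014 to 0.93 across alternatives), and after quantile normalization its estimate was 0.16.

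**Figure D3:**
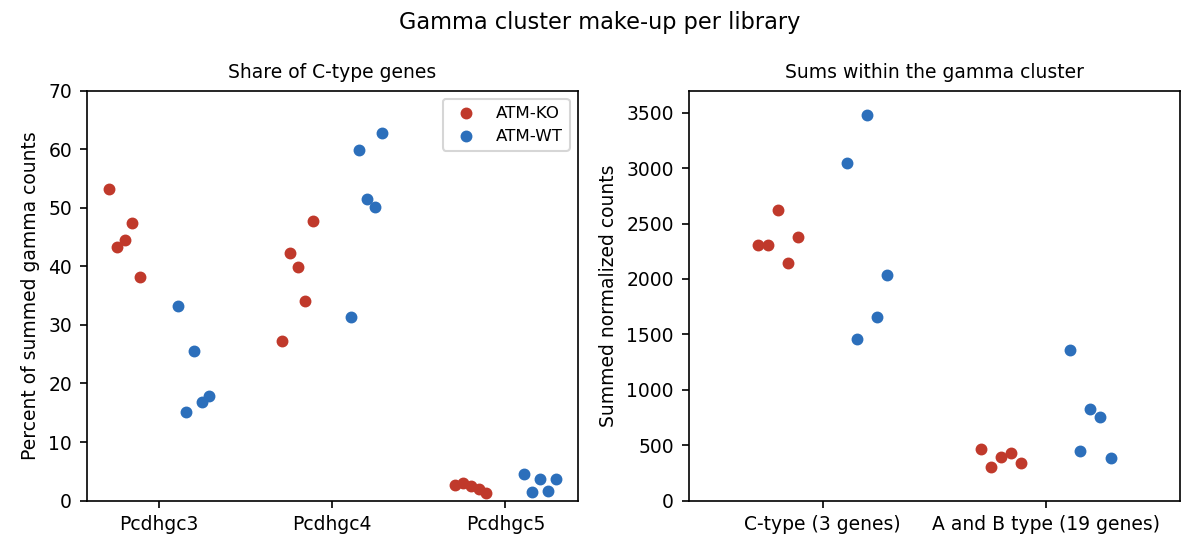
Left, the percent of summed gamma counts held by each C-type gene in each library. Right, summed normalized counts of the 3 C-type genes and of the 19 A and B type genes. The Pcdhgc3 share is 38.3% to 53.2% in ATM-KO and 15.2% to 33.3% in ATM-WT, while the sums overlap.

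The A and B type genes were lower on average but not apart. Their sum was 469, 300.2, 394, 428 and 343 in ATM-KO, against 1358, 449, 827, 754 and 382 in ATM-WT, so that A2 and A5 fall within the ATM-KO range. Pcdhgb1 was the called one, with 47.3, 12.7, 48.1, 65.1 and 51.5 in ATM-KO against 259.5, 60.4, 198, 129.8 and 59.1 in ATM-WT (-1.56 ± 0.52, limma adjusted p = 0.026). ATM-KO library A14 exceeded ATM-WT libraries A2 and A5. The call was lost without ATM-KO library A12 (-1.17) or ATM-WT library A1 (-1.28) or A3 (-1.38), where the adjusted p was 0.056, 0.063 and 0.059 (range over its alternatives 0.013 to 0.13). Pcdhga12, chosen after its values were seen, averaged 32.7 ± 21.6 in ATM-KO and 97.3 ± 82.6 in ATM-WT and did not pass (-1.24 ± 0.64, limma adjusted p = 0.13). It was called lower without ATM-WT library A4, at -1.66 (limma adjusted p = 0.041), and without A2 and A4, at -2.16 (limma adjusted p = 0.0058, from 0.0058 to 0.42 across alternatives). The 3 gamma genes Pcdhga2, Pcdhga7 and Pcdhga10 were too low to test.

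**Figure D4:**
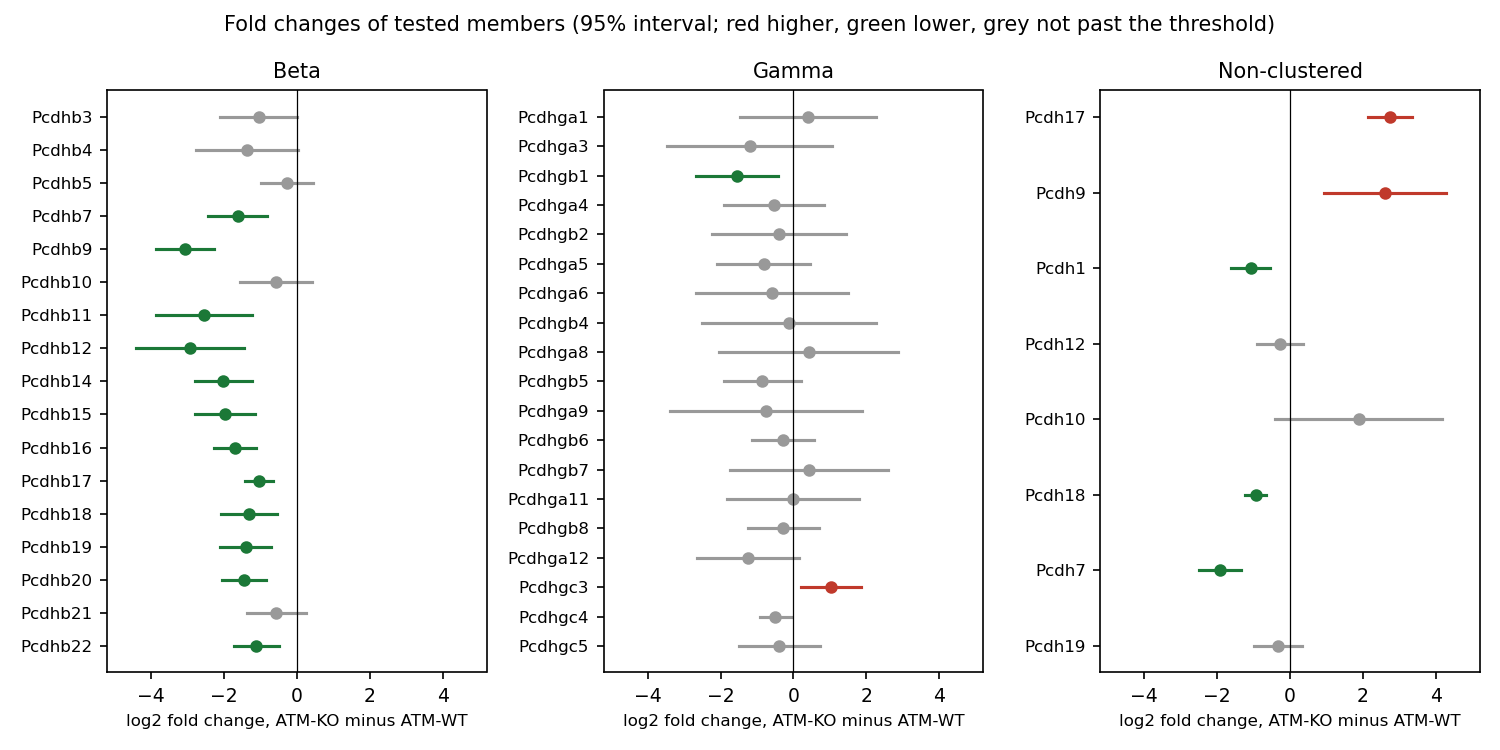
Log2 fold changes of the 44 tested protocadherins (ATM-KO minus ATM-WT) with 95% intervals from limma, clustered genes in chromosome order. All 17 beta estimates lie below 0 and 12 were called lower. Gamma intervals are wide, with 1 gene called higher and 1 lower, and non-clustered genes lie on both sides.

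The non-clustered genes held 2 of the 3 rises. Of 8 tested, 2 were called higher and 3 lower, where 22.1% of all genes tested were higher and 24.3% lower. For 4 of the 8 the groups did not overlap, against 35.2% of all genes. RefSeq promoters (GRCm38.p6, 250 bases before to 50 bases after the start) are printed for 4 of the called genes to set the rising beside the falling ones, matched by symbol. A promoter was matched for 8 of the 55 protocadherins, all of them non-clustered, and for neither Pcdh1 nor Pcdh12. They run 5′ to 3′ on the gene's strand, and capitals mark CG dinucleotides, the sites where mammalian DNA can be methylated. The first pair rose in ATM-KO and the second pair fell.
Pcdh17 (chr14:84443313-84443612, plus strand): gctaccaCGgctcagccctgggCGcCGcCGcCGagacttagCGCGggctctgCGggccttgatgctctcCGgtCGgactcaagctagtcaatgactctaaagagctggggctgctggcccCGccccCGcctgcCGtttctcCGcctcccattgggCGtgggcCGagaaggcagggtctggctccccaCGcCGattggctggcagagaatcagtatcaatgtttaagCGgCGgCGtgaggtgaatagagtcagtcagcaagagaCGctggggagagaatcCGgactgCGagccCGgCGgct
Pcdh9 (chr14:93890630-93890929, minus strand): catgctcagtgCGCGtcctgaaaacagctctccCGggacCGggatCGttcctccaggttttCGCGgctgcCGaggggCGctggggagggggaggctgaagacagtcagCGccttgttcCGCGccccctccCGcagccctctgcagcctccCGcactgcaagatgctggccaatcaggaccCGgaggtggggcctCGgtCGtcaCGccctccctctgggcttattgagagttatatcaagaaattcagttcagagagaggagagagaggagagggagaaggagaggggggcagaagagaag
Pcdh7 (chr5:57717831-57718130, plus strand): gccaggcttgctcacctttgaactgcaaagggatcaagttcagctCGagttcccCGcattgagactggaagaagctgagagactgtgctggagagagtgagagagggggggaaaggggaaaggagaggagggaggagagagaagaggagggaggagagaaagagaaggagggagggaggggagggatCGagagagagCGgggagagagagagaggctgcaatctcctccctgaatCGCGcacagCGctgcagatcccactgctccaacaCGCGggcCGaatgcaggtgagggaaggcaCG
Pcdh18 (chr3:49757267-49757566, minus strand): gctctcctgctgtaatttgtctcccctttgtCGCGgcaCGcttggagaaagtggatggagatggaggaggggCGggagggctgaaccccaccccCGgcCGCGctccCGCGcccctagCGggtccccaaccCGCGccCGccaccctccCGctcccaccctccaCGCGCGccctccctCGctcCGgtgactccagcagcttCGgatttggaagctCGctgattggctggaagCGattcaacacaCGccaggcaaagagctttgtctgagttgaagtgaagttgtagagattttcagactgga

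These windows hold 26 CG dinucleotides in Pcdh17, 18 in Pcdh9, 11 in Pcdh7 and 23 in Pcdh18, against a median of 7 over 32851 promoters of the same length. As many as in Pcdh17 occur in 16.9% of all promoters, as in Pcdh18 in 21.5%, as in Pcdh9 in 29.7% and as in Pcdh7 in 41.4%. A second promoter entry of Pcdh9, not printed, holds 19. Among matched genes that were not called or not tested, Pcdh10 holds 24, Pcdh19 18, Pcdh15 8 and Pcdh20 4. The GC box GGGCGG, on either strand, occurs in the windows of Pcdh17 and Pcdh18 and in 35.7% of all promoters, and TATAAA, on either strand, in none of the 4 and in 13.6% of all.

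Pcdh17, an adhesion protein of developing axons and synapses whose human gene is often methylated in carcinomas, rose in ATM-KO. It stood at 617, 935, 754, 679.7 and 499 normalized counts in ATM-KO, against 123, 50.4, 156, 98.3 and 117 in ATM-WT. The lowest ATM-KO library was several times the highest ATM-WT library, with a log2 fold change of 2.73 ± 0.28 (limma adjusted p = 8.14e-06). Pcdh9, a delta protocadherin of the nervous system, had 61.3, 53.1, 104.7, 92.9 and 70.5 in ATM-KO, against 42.8, 1.54, 15.3, 43.6 and 2.52 in ATM-WT (2.61 ± 0.77, limma adjusted p = 0.015). The groups are apart, but A1 and A4 come close to the lowest ATM-KO libraries.

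Another pair of non-clustered genes had levels too uneven or too low for a call. Pcdh10, a delta protocadherin that in mouse neurons acts in synapse elimination, had 21.2, 36.7, 136.9, 176 and 23.3 in ATM-KO, against 83.7, 0, 12.1, 41.6 and 14.6 in ATM-WT (1.88 ± 1.05, limma adjusted p = 0.16). Without ATM-WT library A2, where it was listed at 0, the value was 0.91. Its ATM-KO values fall into a low and a high set. Pcdh20 was detected in every ATM-KO library at 3.46 to 15.7, against 41.9 in ATM-WT library A3 and 0 in the other 4, and was too low to test.

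Pcdh7, Pcdh18 and Pcdh1 fell. Pcdh7, a delta protocadherin, had 196, 93.3, 134, 191 and 90.5 in ATM-KO, against 422, 359.8, 646, 503 and 679.8 in ATM-WT (-1.92 ± 0.27, limma adjusted p = 9.13e-05). Pcdh18, whose mouse protein binds the adaptor Dab1, had 385, 327, 333, 315 and 362 in ATM-KO, against 640.4, 653, 831, 653 and 565 in ATM-WT (-0.95 ± 0.13, limma adjusted p = 7.37e-05). In both genes all ATM-KO libraries were below all ATM-WT libraries.

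Pcdh1, an adhesion protein of airway and other epithelia, had 299, 224, 376, 313 and 337 in ATM-KO, against 808, 832, 323, 715 and 738 in ATM-WT (-1.08 ± 0.25, limma adjusted p = 0.0032). ATM-WT library A3 was within the ATM-KO range, while the other 4 were far above it.

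Pcdh19, a delta protocadherin whose human gene is mutated in a form of epilepsy, had 828, 937, 899.8, 833 and 848 in ATM-KO, against 1721, 456, 1830 (rounded from 1829.6), 1195 and 896 in ATM-WT. ATM-KO values are tightly grouped inside the ATM-WT range, and the difference did not pass (-0.33 ± 0.30, limma adjusted p = 0.40). Without ATM-WT library A2, the lowest, it was -0.64 (limma adjusted p = 0.013), and without A2 and A4 it was -0.70 (limma adjusted p = 0.014, range over its alternatives 0.013 to 0.72). Pcdh12, a protocadherin of endothelium, averaged 89.0 ± 9.86 in ATM-KO and 115 ± 51.6 in ATM-WT (-0.27 ± 0.29, 95% interval -0.89 to 0.36), and its estimate was -0.05 without ATM-WT library A2, -0.43 without A4 and 0.27 after quantile normalization. Pcdh15, which forms hair cell tip links with the cadherin Cdh23, was too low to test at 5.17 ± 2.67 in ATM-KO and 10.4 ± 11.6 in ATM-WT. Cdh23, chosen after its values were seen, averaged 277 ± 178 in ATM-KO and 30.6 ± 15.8 in ATM-WT (3.09 ± 0.43, limma adjusted p = 8.82e-05).

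**Figure D5:**
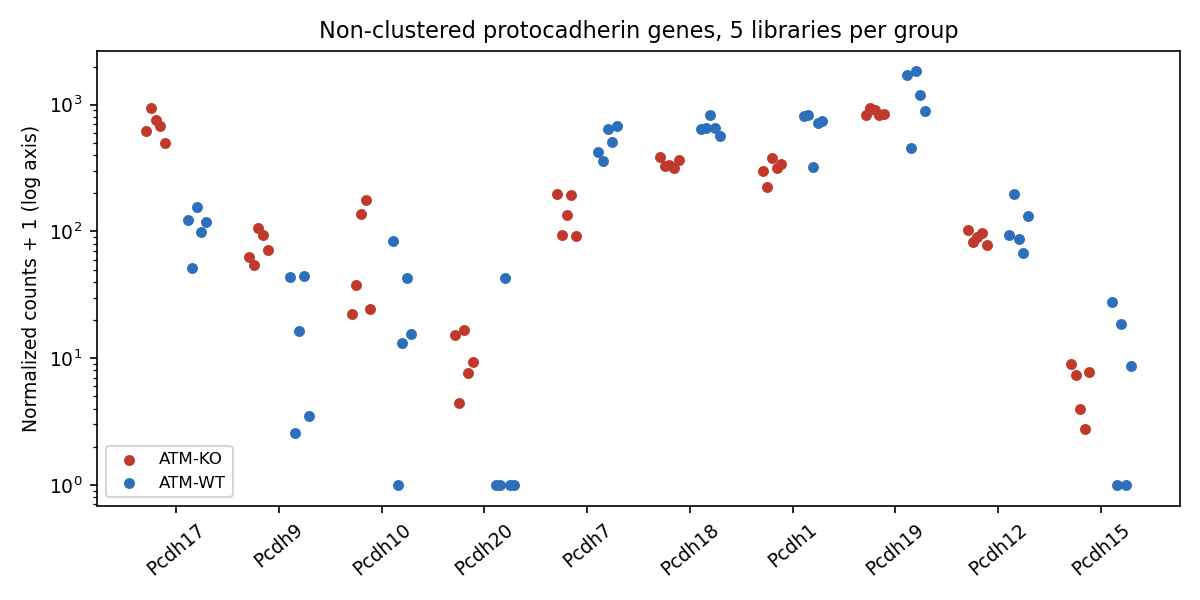
Normalized counts plus 1 of the 10 non-clustered protocadherins in each library, on a log axis. Pcdh17 lies at 499 to 935 in ATM-KO and 50.4 to 156 in ATM-WT, and Pcdh7 at 90.5 to 196 in ATM-KO and 359.8 to 679.8 in ATM-WT.

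Per kb of annotated exon, the order of the non-clustered genes was not the same in both groups. In ATM-KO, Pcdh19 averaged 83.0 normalized counts per kb, Pcdh18 64.2, Pcdh17 53.6 and Pcdh1 35.2. In ATM-WT, Pcdh18 averaged 124.6, Pcdh19 116.5, Pcdh1 77.7 and Pcdh7 49.2, with Pcdh17 at 8.38. Pcdh18 and Pcdh19 in ATM-WT are closer to each other than the SD of Pcdh19 between libraries. Pcdh19 was thus among the highest in both groups, while Pcdh17 ranked near them in ATM-KO and far below them in ATM-WT.

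Genes known to act on the clustered promoters changed in both directions. In the list of CTCF, cohesin and promoter choice, 7 of 14 were called higher and 2 lower, against 22.1% and 24.3% of all genes tested, with a median log2 fold change of 0.14. Ctcf, chosen after its values were seen, averaged 2192 ± 84.9 in ATM-KO and 2121 ± 194 in ATM-WT (0.05 ± 0.09, limma adjusted p = 0.66). The cohesin subunit gene Smc1a averaged 4383 ± 319 in ATM-KO and 2182 ± 255 in ATM-WT (1.01 ± 0.10). The subunit gene Stag2 (0.47 ± 0.10) and the cohesin regulator gene Pds5b (0.66 ± 0.10) also rose. The cohesin loader gene Mau2 fell (-0.48 ± 0.12), while the loader gene Nipbl, chosen after its values were seen, was not called (0.02 ± 0.11, limma adjusted p = 0.89).

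Of 12 genes that silence or demethylate the clusters, 5 were called higher and 3 lower, against 22.1% and 24.3% of all genes tested, with a median of 0.42. Hells, a chromatin remodeller for DNA methylation, averaged 4064 ± 320.3 in ATM-KO and 1217 ± 245 in ATM-WT (1.76 ± 0.13). The maintenance methylation genes Uhrf1 (1.00 ± 0.10) and Dnmt1 (0.54 ± 0.09) rose, as did the histone methyltransferase gene Setdb1 (0.94 ± 0.14). The 3 that fell, chosen after their values were seen, were the de novo methyltransferase gene Dnmt3a (-0.67 ± 0.16) and the demethylation genes Tet3 (-0.53 ± 0.13) and Tet1. Tet1 averaged 5.94 ± 6.26 in ATM-KO and 75.5 ± 47.1 in ATM-WT (-3.78 ± 0.74). Smchd1, chosen after its values were seen, averaged 1993 ± 154 in ATM-KO and 1870 ± 309.9 in ATM-WT and was not called (0.10 ± 0.12, limma adjusted p = 0.49).

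Partners inside the cell were mixed. The list joins WAVE complex genes, whose products link protocadherin tails to actin, with kinase partners. Of its 12 tested genes, 5 were called higher and 1 lower (median 0.39), against 22.1% and 24.3% of all genes. Wasf1 (1.23 ± 0.19), Ptk2b (0.65 ± 0.10) and Fyn (0.68 ± 0.21) rose and Brk1 (-0.45 ± 0.09) fell. Without A2 and A4 the value of Fyn was 0.34 and its call was lost (limma adjusted p = 0.052). Among the shedding proteases and gamma-secretase subunits that cleave protocadherins, 1 of 7 was called higher, against 22.1% of all genes, Aph1a at 0.33 ± 0.10 (median of the list 0.15). Aph1a lost its call in 5 alternatives, among them without A12 (0.30), A13 (0.31) or both A2 and A4 (0.24).

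Of 12 other cadherin superfamily genes tested, 2 were higher and 7 lower (median -1.28), against 22.1% and 24.3% of all genes. Fat2, an epithelial member, averaged 15.5 ± 10.5 in ATM-KO and 1654 ± 1383 in ATM-WT (-6.40 ± 0.59), and Fat1 (-1.22 ± 0.11), Clstn1 (-1.64 ± 0.17) and Cdhr1 (-5.87 ± 0.70) fell as well. Of 16 listed neighbours of the clusters on the chromosome, 3 were higher and 1 lower, against 22.1% and 24.3% of all genes, with a median of 0.01. Pcdh1, called lower, and Pcdh12, not called, lie on the same chromosome and are not in this list. Taf7, chosen after its values were seen because it lies between the beta and gamma clusters, averaged 246 ± 54.5 in ATM-KO and 194 ± 10.4 in ATM-WT and was not called (0.31 ± 0.19). Hars (0.89 ± 0.09), Diaph1 (0.42 ± 0.09) and Ndufa2 (0.43 ± 0.15) rose, and Cd14, a myeloid receptor gene, fell (-1.76 ± 0.20). Ndufa2 lost its call in 8 alternatives: without both A2 and A4 (0.38, limma adjusted p = 0.092, range over its alternatives 0.0086 to 0.092), after quantile normalization, without trend in eBayes, and without any of A12, A13, A15, A1 or A4, where it was 0.36 to 0.42.

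Nerve markers did not move together, although protocadherins are best known from neurons. Of 8 tested Schwann cell and nerve markers, 1 was higher and 3 lower in ATM-KO, where 46.4% of all genes were called in either direction. The sum of the whole list was 5162 to 6536 in ATM-KO and 1408 to 2954 in ATM-WT, most of it from Tubb3, chosen after its values were seen, at 5098 ± 564 in ATM-KO and 1193 ± 463 in ATM-WT. The glial marker Sox10, chosen likewise, stood at 2.00 ± 2.14 in ATM-KO and 36.8 ± 52.4 in ATM-WT, with 127.5 in ATM-WT library A3, and was not called (limma adjusted p = 0.088). The neuronal marker Snap25 was called lower, at 0.366 ± 0.818 in ATM-KO and 81.8 ± 90.9 in ATM-WT. Melanocyte markers summed to 223 to 273 in ATM-KO and 115 to 228 in ATM-WT, and skeletal muscle markers to 14.4 to 978 in ATM-KO and 36.6 to 1462 in ATM-WT. The part of these cells in the protocadherin levels was not tested.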

How the data were processed

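RNA of 5 ATM-KO and 5 ATM-WT tumours was extracted and made into libraries by a company, per the labels' protocols. The authors deposited normalized counts per gene (signal, with no value below 0). STAR, Salmon and DESeq2 are named in the submitters' processing notes. For versions, roles, genome build and annotation, the entry is "not given in the sources used here". Each column names a genotype and a library, with no link to the labels' sample numbers, and was assigned to a group only. The step that 1 read adds was sought among low values, up to 20 reads. A whole number of steps, to within 0.05, was found for 59.1% to 69.5% of them per library, so reads were not recovered and no count model was run.

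Genes with a mean of at least 10 were log2 transformed after adding 1 and fitted together by limma 3.58.1 (R 4.3.3, eBayes with trend). The procedure was tested on simulated data in which far fewer genes changed than were called here, equally in both directions. How it behaves with as many changed genes was not tested. Named genes are Atm, all non-clustered protocadherins, in each cluster up to 6 rising and 6 falling called genes with the largest changes and the C-type genes, and up to 4 genes with the smallest p in each list of related genes. Any other gene named was chosen after its values were seen, and only some are marked so where they appear. Members and lists were chosen with earlier results of these data known. Gene order and promoters come from RefSeq and exon lengths from GENCODE M21. Tables and figures used Python 3.11.15, pandas 2.3.3, numpy 2.4.6 and matplotlib 3.10.9. Alternatives covered the pseudocount, filter, scaling, eBayes settings, array weights and left-out libraries.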

Additional observations from a re-analysis of the deposited data

Results flagged for a closer look

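In 4 of 46 groups of 5 values checked, for named protocadherins and cluster sums, 1 library lay far from the others. For normally distributed values chance flags about 1 in 20 groups. That rate does not hold for groups with values at 0, such as those of Pcdh20 and Pcdhb12, so the 2 rates cannot be compared. Pcdh1 was 323 normalized counts in ATM-WT library A3 and 715 to 832 in the other ATM-WT libraries. Pcdh20 was 41.9 in ATM-WT library A3 and 0 in the others. Pcdhb12 was listed at 0 in ATM-KO library A12, against 6.10 to 11.6 in the other ATM-KO libraries. Pcdhgb1 was 12.7 in ATM-KO library A12 and 47.3 to 65.1 in the other ATM-KO libraries.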

How the results depend on the processing

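Of the 19 called protocadherins, 10 kept their call under all 20 alternatives, among them Pcdh17, Pcdh7, Pcdh18, Pcdh1, Pcdhb9 and Pcdhb16, and 17 under each of the 10 fits without 1 library. Pcdhgc3 lost its call in 10 alternatives and Pcdhgb1 in 5. Without 1 library at a time, beta genes called lower numbered 12 to 14, gamma genes higher 0 to 1 and lower 0 to 3. All genes called higher in these fits numbered 3235 to 3786 and lower 3644 to 4105. With a mean of at least 50 as the filter, 2 gamma genes were lower and 1 non-clustered gene was higher. Pcdh9, Pcdhb11, Pcdhb12 and Pcdhb15 were then too low to be tested, and lost their call only there. Pcdhb7, Pcdhb18 and Pcdhb22 lost theirs only after quantile normalization. Without trend in eBayes, 0 gamma genes were higher. Without A2 and A4, 0 gamma genes were higher and 4 lower. After quantile normalization the beta sum differed by -0.97 on the log2 scale, against -1.41 as reported, and the signs of Atm (0.073), Pcdh12 (0.27) and Pcdhgc5 (0.16) turned. Atm also turned without ATM-KO library A15 (0.055), ATM-WT library A2 (0.12) or A2 and A4 (0.060). None of these was called, and the cause was not tested. No paired analysis was possible because the labels name no animals and no pairs of tumours. The columns also carry library numbers and not the sample numbers of the labels.

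Low protocadherins rest on few reads, in A2 above all, and constant exons shared within the gamma cluster limit any value of a single gamma gene.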
